A study of Mus musculus with 12 samples.

Results

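The markers of cortical pyramidal neurons were examined in the striatal libraries as a gauge of how much cortex each dissection still held. The 9 genes were Slc17a7, Slc17a6, Neurod6, Neurod2, Tbr1, Cux2, Fezf2, Rorb and Lamp5. They were chosen as a list of known markers and found by gene name in the count table, where each matched 1 of 57132 features. The animals were TAAR5-KO mice, a knockout line for trace amine-associated receptor 5, and wild-type (WT) littermates, all C57Bl/6, of 10 months and of both sexes, with 6 libraries in each group. A coronal slice in front of Bregma was cut, its cortex was taken off, and RNA of the remaining striatum was depleted of ribosomal RNA (rRNA) and sequenced as single-end reads. Libraries NK1 to NK6 carry the TAAR5-KO label and NK7 to NK12 the WT label. No library is tied to an animal or a sex, so p-values measure the spread between these libraries. Taar5 itself was not lower under the TAAR5-KO label, with 1 to 6 counts a library against 0 to 2 under the WT label. Only NK6 had more than 3 counts, so these values do not check the labels, and the groups are named below by their labels.

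Pyramidal neurons are the glutamatergic projection neurons of the cortex. Their cell bodies lie in the cortical layers, the claustrum and related pallial areas, while the striatum receives their axons and is built mainly of GABAergic spiny neurons. Most mRNA of a neuron stays in its cell body. Transcripts of pyramidal neuron genes in a striatal sample are therefore usually read as tissue from beyond its border, although a few of the genes are also transcribed in other cells. Slc17a7 encodes VGLUT1, the vesicular glutamate transporter of cortical neurons, and Slc17a6 encodes VGLUT2, which prevails in the thalamus, hypothalamus and other subcortical glutamatergic nuclei. Neurod2 and Neurod6 encode basic helix-loop-helix factors of differentiating pyramidal neurons. Tbr1 encodes a T-box factor of deep-layer neurons and Fezf2 a zinc finger factor of subcerebral projection neurons. Cux2 marks upper layers, Rorb encodes a nuclear receptor of layer IV that is also transcribed in thalamus and other regions, and Lamp5 encodes a lysosome-associated membrane protein found in upper-layer neurons and in a class of interneurons.

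The list differed widely between libraries of the same label. In 7 of the other 8 members the level was positively correlated with that of Slc17a7, past the test in 5, while that of Slc17a6 was not. Slc17a6 was also the 1 member that passed the test between the labels, with 3.24 ± 1.14 CPM under the TAAR5-KO label and 6.24 ± 3.34 under the WT label, and it lost that call in other tests. Slc17a7 lay between 10.9 and 52.2 CPM over the 12 libraries and did not pass.

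All 9 genes are protein coding in GRCm39. Slc17a7 (ENSMUSG00000070570.6) lies at chr7:44813373-44825566 and Slc17a6 (ENSMUSG00000030500.7) at chr7:51271754-51320867, both on the plus strand. Tbr1 lies at chr2:61633274-61644458 and Lamp5 at chr2:135894159-135911837, and Fezf2 at chr14:10121574-10127669, all on the plus strand. Neurod6 lies at chr6:55654807-55658248, Neurod2 at chr11:98216241-98220474, Cux2 at chr5:121994429-122188165 and Rorb at chr19:18907969-19088560, on the minus strand. Of the 9, Neurod6 alone shared exon bases with another feature, Gm56939, over 45 bases on the opposite strand, and Gm56939 had 15 counts over all libraries against 1840 of Neurod6.

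Promoters are shown for the glutamate transporters, which parted ways, and for the factors that varied most closely with Slc17a7. The sequences are RefSeq windows of GRCm38.p6 that end at the base before the annotated start, written 5′ to 3′ on the strand of the gene. Capitals mark CAGATG, a form of the E-box bound by proneural factors, or its reverse complement CATCTG. The window of Slc17a7 is chr7:45163671-45163920 (+), that of Tbr1 is chr2:61804203-61804452 (+), that of Neurod2 is chr11:98329646-98329895 (−), that of Neurod6 is chr6:55681264-55681513 (−), and those of Slc17a6 are chr7:51621580-51621829 (+) and chr7:51624387-51624636 (+).
Slc17a7: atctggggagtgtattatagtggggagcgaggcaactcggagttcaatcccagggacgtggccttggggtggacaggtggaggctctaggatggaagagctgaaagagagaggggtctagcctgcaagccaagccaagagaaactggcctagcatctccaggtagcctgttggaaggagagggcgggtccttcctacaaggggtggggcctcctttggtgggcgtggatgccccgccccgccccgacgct
Tbr1: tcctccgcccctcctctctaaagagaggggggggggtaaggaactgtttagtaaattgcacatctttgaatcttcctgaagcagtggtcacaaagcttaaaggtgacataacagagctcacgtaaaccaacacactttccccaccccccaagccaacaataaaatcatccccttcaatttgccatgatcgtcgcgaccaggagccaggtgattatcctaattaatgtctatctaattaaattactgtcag
Neurod2: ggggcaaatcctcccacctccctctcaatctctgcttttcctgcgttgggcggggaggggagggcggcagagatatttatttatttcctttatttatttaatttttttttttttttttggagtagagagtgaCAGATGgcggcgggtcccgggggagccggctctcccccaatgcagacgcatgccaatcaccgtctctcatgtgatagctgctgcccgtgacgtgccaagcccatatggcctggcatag
Neurod6: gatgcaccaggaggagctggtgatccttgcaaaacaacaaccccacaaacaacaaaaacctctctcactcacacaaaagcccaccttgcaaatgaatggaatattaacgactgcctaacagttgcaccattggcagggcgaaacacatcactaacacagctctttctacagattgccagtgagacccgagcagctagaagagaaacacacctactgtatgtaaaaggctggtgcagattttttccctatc
Slc17a6, first start: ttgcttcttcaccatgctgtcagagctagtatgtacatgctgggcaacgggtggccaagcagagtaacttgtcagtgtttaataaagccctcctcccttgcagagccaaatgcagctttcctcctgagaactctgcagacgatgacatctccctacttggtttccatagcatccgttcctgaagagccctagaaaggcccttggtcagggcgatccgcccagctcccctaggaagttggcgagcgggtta
Slc17a6, second start: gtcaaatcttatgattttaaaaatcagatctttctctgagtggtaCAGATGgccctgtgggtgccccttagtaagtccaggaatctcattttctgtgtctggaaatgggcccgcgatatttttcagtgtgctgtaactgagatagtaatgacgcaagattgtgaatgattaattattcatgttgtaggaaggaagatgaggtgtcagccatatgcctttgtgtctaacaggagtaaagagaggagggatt

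All 9 members had an entry, with 13 windows among them. CAGATG on either strand was found in 3 of the 13, namely those of Neurod2, the second start of Slc17a6 and a start of Cux2, and in 14.4% of 32851 windows over all genes. GGTGTGA, the core of a T-box site, was found in 0 of the 13 and in 3.33% of all windows. A match or its absence describes only the letters of these windows.

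Depth limited the weakest members. Total counts ran from 11269915 to 34824450 per library, of which 64.3% to 88.1% were on rRNA features, so that 1819907 to 6399188 counts were left for other genes. Levels are given as CPM, counts per 1000000 counts of the library size as scaled by TMM factors, and 3 counts came to 0.0678 to 0.361 CPM. The TMM factors ran from 0.375 in NK1 to 2.46 in NK7, so the levels depend strongly on this scaling. All 9 members passed the filter on low values. Slc17a7 had 148 to 2311 counts per library and Fezf2, the sparsest, had 2 to 102.

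In the order NK1 to NK6, under the TAAR5-KO label, Slc17a7 had 23.2, 39.0, 44.2, 10.9, 17.0 and 36.8 CPM. In the order NK7 to NK12, under the WT label, it had 37.6, 27.4, 16.2, 18.9, 41.5 and 52.2 CPM. Both groups held high and low libraries, and the highest was 4.79 times the lowest.

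Tbr1, in the same order of libraries, had 13.6, 21.0, 22.9, 5.76, 8.64 and 20.1 CPM under the TAAR5-KO label and 15.4, 12.1, 8.42, 11.6, 19.4 and 24.0 CPM under the WT label. As for Slc17a7, the 4 lowest libraries were NK4, NK5, NK9 and NK10, 2 from each label.

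Neurod6 had 6.13, 12.2, 10.8, 4.71, 2.81 and 9.39 CPM from NK1 to NK6 and 5.00, 4.97, 2.30, 4.34, 9.88 and 9.92 CPM from NK7 to NK12. Neurod2 had 3.45, 5.46, 6.00, 2.23, 2.18 and 5.42 CPM from NK1 to NK6 and 4.18, 2.42, 1.09, 3.25, 5.77 and 6.15 CPM from NK7 to NK12. Both factors were highest in NK2, NK3, NK6, NK11 and NK12, the same 5 libraries as Tbr1. The highest library was 5.30 times the lowest for Neurod6 and 5.62 times for Neurod2.

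Fezf2 lay between 0.881 and 1.56 CPM in the libraries labelled TAAR5-KO, with a median of 1.34, and between 0.219 and 2.31 CPM in those labelled WT, with a median of 1.04. Its 0.219 CPM in NK9 stood on 2 counts, which is below the 3 counts taken as the floor, so that no fold is given. Its 5 highest libraries were again NK2, NK3, NK6, NK11 and NK12.

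The layer markers Cux2, Rorb and Lamp5 moved over a narrower range. Cux2 had 5.27 to 10.7 CPM under the TAAR5-KO label and 5.25 to 11.7 under the WT label, a 2.22-fold range. Rorb had 19.6 to 29.8 CPM under the TAAR5-KO label and 19.3 to 29.8 under the WT label, a range of 1.55-fold, the narrowest of the list. Lamp5 had 4.82 to 15.5 CPM under the TAAR5-KO label and 4.92 to 12.4 under the WT label, with its highest value in NK6 and a range of 3.22-fold.

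Slc17a6 had 2.99, 1.48, 2.92, 4.77, 4.19 and 3.10 CPM from NK1 to NK6, under the TAAR5-KO label. From NK7 to NK12, under the WT label, it had 5.00, 3.97, 6.34, 6.50, 12.5 and 3.12 CPM. NK1, NK2, NK3 and, narrowly, NK6 (3.10 CPM against 3.12 in NK12) lay below every library labelled WT. Above every library labelled TAAR5-KO lay 4 libraries labelled WT. The 4 lowest libraries of Slc17a6 included none of the 4 lowest of Slc17a7. The highest library, NK11, was 8.44 times the lowest, NK2, the widest range among the 8 members for which a fold was given.

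**Figure D1:**
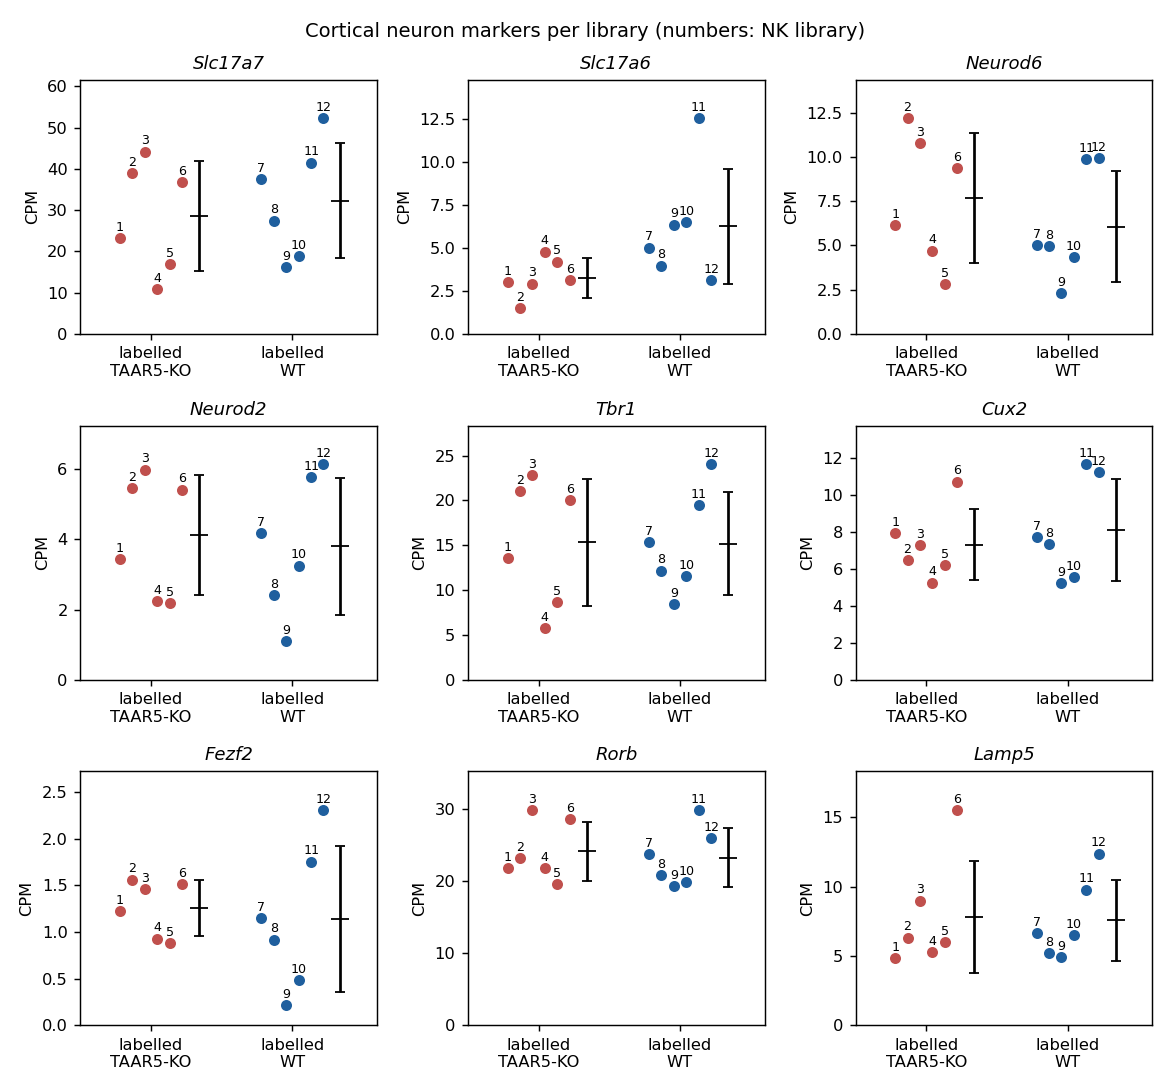
Level of each marker in CPM (TMM library sizes) in the 12 libraries, with 1 point per library numbered as NK1 to NK12 and bars for the mean ± SD of each label. The groups overlap in every panel. For Slc17a6 the 4 lowest libraries are all labelled TAAR5-KO, though NK6 is nearly level with NK12, and NK11 stands apart at 12.5 CPM.

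To set the members beside each other, CPM was divided by the kilobases of merged exons. Slc17a7 was the most abundant at 5.64 ± 2.44 CPM per kilobase (SD over all 12 libraries), above Neurod6 in 11 of 12 libraries. Neurod6 followed with 3.19 ± 1.56, Tbr1 with 2.78 ± 1.12, Lamp5 with 2.63 ± 1.15 and Rorb with 2.14 ± 0.356 CPM per kilobase. These 4 neighbours were not separated beyond their spread, each being above the next in 7 or 8 of 12 libraries. Rorb exceeded Neurod2 (1.26 ± 0.561) in 12 of 12 libraries. Neurod2, Slc17a6 (0.878 ± 0.528) and Cux2 (0.767 ± 0.229) overlapped, and each was above the next in 7 of 12. Fezf2 was the least abundant at 0.394 ± 0.187 CPM per kilobase, below Cux2 in 12 of 12 libraries. As a scale, Penk, the opioid peptide gene of indirect-pathway spiny neurons, stood at 48.3 ± 7.77 CPM per kilobase and Sst, of a class of interneurons, at 13.8 ± 1.36.

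The scatter of the members within a label was large for these data. The biological coefficient of variation fitted by edgeR was 0.362 for Slc17a7, 0.329 for Slc17a6, 0.386 for Neurod6, 0.364 for Neurod2, 0.337 for Tbr1, 0.338 for Fezf2 and 0.315 for Lamp5. Among all 13902 features tested its median was 0.125 and its 90th percentile 0.248. Only 2.00% of features scattered more than Neurod6, 2.55% more than Slc17a7 and 4.42% more than Lamp5. Cux2 had 0.225 and Rorb had 0.146, with 13.1% and 36.4% of features above them.

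The comparison of the labels asked whether the markers of cortex differed between TAAR5-KO and WT striatum, which would put a difference of dissection beside that of genotype. With the likelihood ratio test of edgeR and an adjusted p under 0.1, 1 of the 9 members passed, and 229 of 13902 features (1.65%) passed over the whole table, 133 higher (0.957%) and 96 lower (0.691%) under the TAAR5-KO label. In bulk RNA, fewer cells of a type and less RNA per cell cannot be told apart.

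Slc17a6 averaged 3.24 ± 1.14 CPM under the TAAR5-KO label and 6.24 ± 3.34 under the WT label (SD, 6 libraries each). The log2 fold change was −0.93 with a standard error of 0.29 and an adjusted p of 0.0970 by the likelihood ratio test, a level 1.90 times as high under the WT label. The call sat close to the threshold. It was lost with the quasi-likelihood test of edgeR (adjusted p of 0.232), which called 0.453% of features, 0.144% lower and 0.309% higher under the TAAR5-KO label. It was lost as well with DESeq2 (adjusted p of 0.197, log2 fold change −0.93). DESeq2 called 1.27% of all 13902 features, 0.539% lower and 0.734% higher. It gave no adjusted p for 7009 of these features, so its share among the features it could call was larger. With library size as the only scaling, which moved the median of all features to −0.49, the call was lost at an edgeR adjusted p of 0.700. Leaving out a library kept the sign in 12 of 12 fits, with log2 fold changes of −1.07 to −0.57. The call held in 4 of these fits, without NK4, NK5, NK8 or NK12, and was lost in the other fits, at adjusted p-values of 0.115 to 0.374. The smallest difference was found without NK11, which carried 271 of the 1145 counts of the gene. A two-sided exact permutation test of CPM, added after the data were seen, gave an unadjusted p of 0.0281 for Slc17a6. The gene had already been picked out of the list by the fit, and this p was not adjusted for that. By the same exact test the other members had unadjusted p-values of 0.407 to 0.970.

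The other 8 members did not pass. Slc17a7 averaged 28.5 ± 13.4 CPM under the TAAR5-KO label and 32.3 ± 13.9 under the WT label, with a log2 fold change of −0.19 (edgeR adjusted p of 0.871) and a 95% interval of −0.78 to 0.41. Tbr1 averaged 15.3 ± 7.08 and 15.2 ± 5.73 CPM, Neurod6 averaged 7.66 ± 3.68 and 6.07 ± 3.13 CPM, and Neurod2 averaged 4.12 ± 1.72 and 3.81 ± 1.95 CPM. Cux2 averaged 7.33 ± 1.91 and 8.14 ± 2.76 CPM, Lamp5 averaged 7.82 ± 4.04 and 7.58 ± 2.92 CPM, and Fezf2 averaged 1.26 ± 0.299 and 1.14 ± 0.783 CPM. Rorb, with 24.1 ± 4.12 and 23.3 ± 4.1 CPM, had the tightest interval of the list, from −0.21 to 0.30 on the log2 scale. The adjusted p-values of the 8 ran from 0.770 to 0.995 by the likelihood ratio test. The median log2 fold change of the 9 members was 0.02, against −0.01 for all features tested. Most intervals other than that of Rorb left room for sizeable differences in either direction, and that of Neurod6 reached from −0.33 to 0.96.

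**Figure D2:**
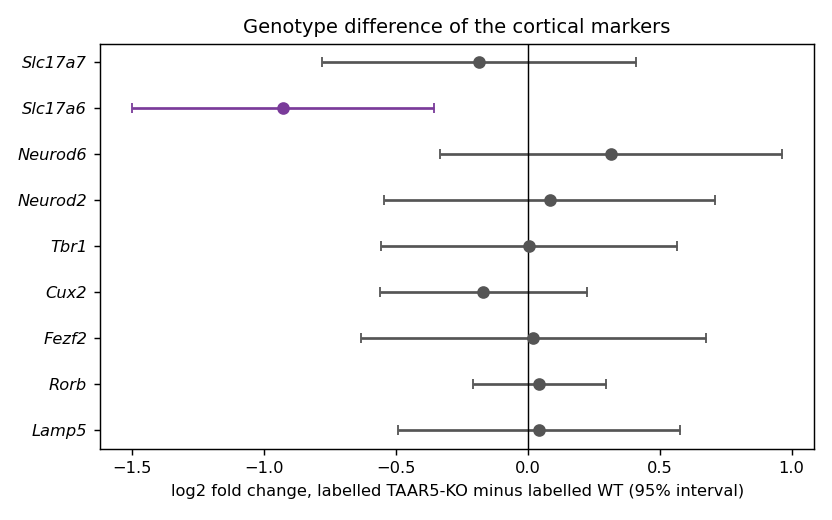
log2 fold change of each marker, labelled TAAR5-KO minus labelled WT, with its 95% interval from the edgeR fit over 6 libraries a label and with a line at 0. Slc17a6, drawn in purple at −0.93, is the 1 marker past an adjusted p of 0.1, and the intervals of the other 8 include 0.

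The members were then followed from library to library. Pearson's r of log2 CPM with Slc17a7 over the 12 libraries was 0.97 for Tbr1 (Spearman's rho 0.96), 0.85 for Neurod2 (rho 0.95), 0.80 for Neurod6 (rho 0.87), 0.78 for Cux2 (rho 0.73), 0.77 for Rorb (rho 0.83), 0.73 for Fezf2 (rho 0.83) and 0.69 for Lamp5 (rho 0.70). By a permutation test adjusted over all 13901 features, 5 of the other 8 members passed an adjusted p of 0.1 with a positive r, against 4.24% of features in that direction and 5.18% in either. By r, Tbr1 ranked 4 among all features compared with Slc17a7. The permutation p-values, adjusted, were 0.00662 for Tbr1, 0.0375 for Neurod2, 0.0668 for Neurod6, 0.0779 for Cux2 and 0.0902 for Rorb, and 0.103 for Fezf2 and 0.151 for Lamp5, which did not pass. With Spearman's rho, Cux2 did not pass (permutation test, adjusted p of 0.143) and Fezf2 did (adjusted p of 0.0623), against 3.24% of all features that passed with a positive rho. Points shared their library and its scaling factor, and with all features as the yardstick the median r was −0.02.

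For these 7 members r was also positive within the 6 libraries of each label. Within the TAAR5-KO label r was over 0.99 for Tbr1 (0.996) and lowest for Lamp5 (0.61). Within the WT label it ran from 0.83 for Lamp5 to 0.98 for Fezf2. The relation rested in part on the extremes. Without NK4 and NK9, the libraries farthest from the median of Slc17a7, r was 0.94 for Tbr1, 0.88 for Neurod2, 0.85 for Neurod6, 0.85 for Fezf2, 0.83 for Rorb, 0.67 for Cux2 and 0.64 for Lamp5, and by the permutation test over 10 libraries Tbr1 alone still passed (adjusted p of 0.0824). Leaving out 1 library at a time, Tbr1 and Neurod2 passed in 12 of 12 fits. Neurod6 passed in 5 of 12, without NK1, NK4, NK7, NK8 or NK10, Cux2 in 3 of 12, without NK1, NK2 or NK3, and Rorb in 1 of 12, without NK4.

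Slc17a6 was apart from the list. Its r with Slc17a7 was −0.26 (rho −0.36, permutation test, adjusted p of 0.761), and 0.63 with library size as the only scaling, where 13489 of 13901 features passed. With TMM factors, r within the labels was −0.75 for TAAR5-KO and −0.18 for WT. Without NK11 alone it was −0.60 (permutation test, adjusted p of 0.303).

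**Figure D3:**
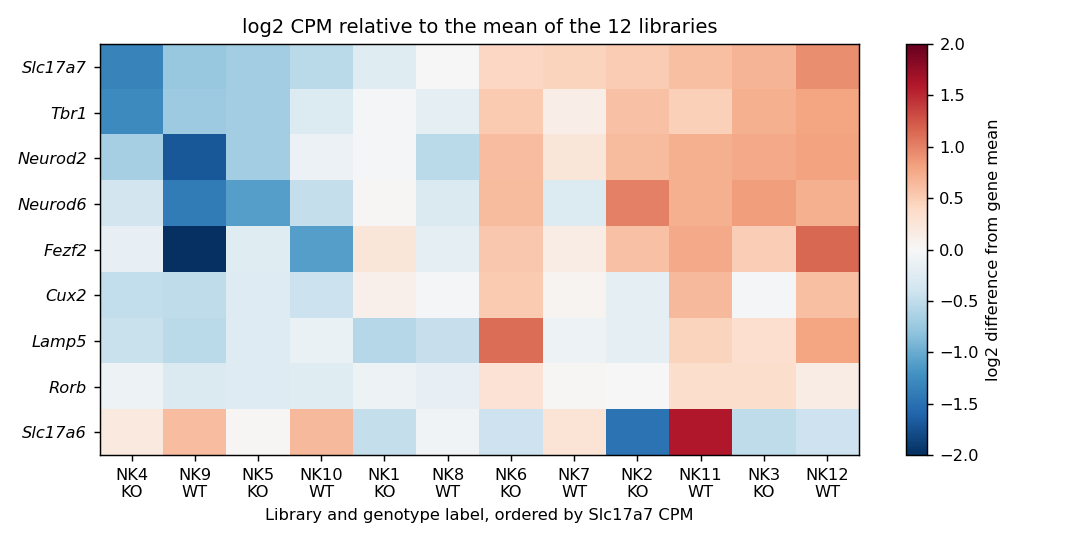
log2 CPM of each marker as a difference from its mean over the 12 libraries (colour scale from −2 to 2), with libraries in the order of Slc17a7 from NK4 at 10.9 CPM to NK12 at 52.2 CPM. From Tbr1 down to Rorb the colours tend from blue to red with Slc17a7, only faintly for Rorb and with Lamp5 highest in NK6. Slc17a6 in the last row is lowest in NK2 and highest in NK11 (TMM factors).

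Ratios of counts per kilobase inside a library need no scaling between libraries. Tbr1 stayed between 40.2% and 60.1% of Slc17a7, a 1.49-fold range, although both genes moved over 4-fold in CPM. Neurod2 was 11.6% to 35.1% of Slc17a7, Cux2 8.83% to 25.8%, Lamp5 29.8% to 88.8%, Neurod6 33.4% to 108.3% and Rorb 24.2% to 97.1%. For 7 of the other 8 members the highest ratio was in NK4, the library with the least Slc17a7, and Tbr1 was the exception, with its highest ratio in NK10.

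The 2 transporters had the widest ratio. From NK1 to NK6, under the TAAR5-KO label, Slc17a7 over Slc17a6 was 7.78, 26.3, 15.2, 2.29, 4.06 and 11.9. From NK7 to NK12, under the WT label, it was 7.51, 6.92, 2.56, 2.91, 3.33 and 16.8. The medians were 9.83 and 5.13, the groups overlapped, and the range over all libraries was 11.5-fold.

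Against the spiny neurons, which make up most striatal neurons, the markers also ranged widely. Slc17a7 was 1.50% of the sum of 12 spiny neuron genes in NK4, the lowest, and 11.9% in NK11, the highest, a 7.91-fold range. It ran from 1.50% to 6.37% under the TAAR5-KO label and from 2.60% to 11.9% under the WT label. The 9 markers together came to 8.48% to 42.7% of that sum. In NK11 the spiny neuron sum itself was low, at 64.9 CPM per kilobase against 101.7 to 134.8 in the other libraries.

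**Figure D4:**
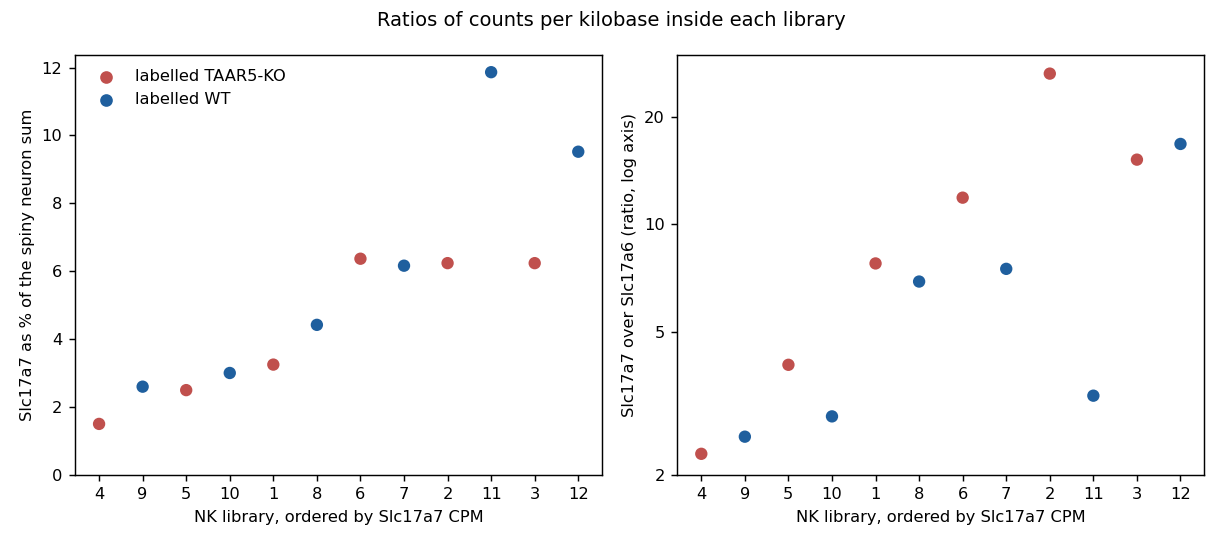
Left, Slc17a7 as a percent of the sum of 12 spiny neuron genes, and right, Slc17a7 over Slc17a6 on a log axis, both as ratios of counts per kilobase in each of the 12 libraries ordered by Slc17a7 CPM. The left ratio climbs from 1.50% in NK4 to 11.9% in NK11, and on the right NK11 falls to 3.33 beside 26.3 in NK2 and 15.2 in NK3.

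Lists of other marker genes were set beside the members. Of 8 other pan-cortical excitatory genes, all had a positive r with Slc17a7 (median 0.92) and 7 passed, among them Sv2b, a synaptic vesicle protein gene (0.96), Slc30a3, the zinc transporter of glutamatergic vesicles (0.94), and Emx1, of the dorsal pallium (0.90). Neurod1, at 0.43, did not pass. Of 5 claustrum and endopiriform genes 1 passed, Nr4a2 (0.84), and the median r was 0.65. Of 11 other deep-layer genes 2 passed, Etv1 (0.84) and Ccn2 (0.74), with a median of 0.59, and of 6 other upper-layer genes 0 passed, with a median of 0.28. Rasgrf2 (0.41) and Hs3st4 (0.52), the most abundant of the upper-layer and deep-layer lists, did not pass.

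With TMM or RLE factors the 12 spiny neuron genes all had a negative r with Slc17a7 (median −0.43 with TMM). With library size as the only scaling all 12 had a positive r (median 0.75). Under that scaling every list gene tested had a positive r, and 13489 of 13901 features passed. The 4 thalamic and hypothalamic genes tested (median −0.44) and the 3 septal genes tested (median −0.55) were all negative with TMM and all positive with library size only (0.55 and 0.52), with 0 past the threshold in each list by the permutation test or by Spearman's rho under TMM. The 8 interneuron genes ran from −0.72 for Chat to 0.67 for Vip. The 5 oligodendrocyte genes had a median of −0.22 and the 5 astrocyte genes lay between −0.10 and 0.07, again with 0 passing. Over these lists of other regions and cells and the upper-layer list, 43 genes were tested and 6 had an unadjusted p under 0.05. The share of all features at that p is not given, so this count has no yardstick.

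**Figure D5:**
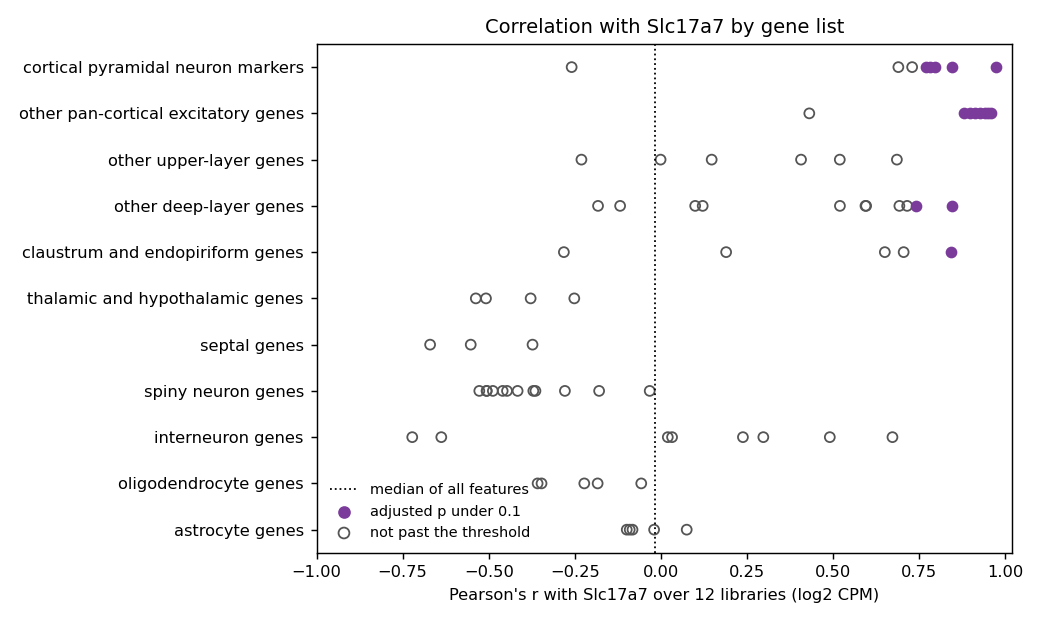
Pearson's r with Slc17a7 over the 12 libraries (log2 CPM) for each tested gene of 11 lists, with filled points for a permutation p under 0.1 after adjustment over all features and a dotted line at the median of all features, −0.02. The pan-cortical genes lie near 0.92 apart from Neurod1 at 0.43. The markers lie between 0.69 and 0.97 apart from Slc17a6 at −0.26. The spiny neuron, thalamic, hypothalamic and septal genes lie below 0 with the TMM factors plotted. With library size only every gene shown has an r above 0.

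Between the labels, 0 of the 8 pan-cortical, 6 upper-layer, 11 deep-layer, 5 claustrum, 4 thalamic and hypothalamic, 3 septal, 12 spiny neuron, 8 interneuron and 5 oligodendrocyte genes tested passed the likelihood ratio test of edgeR. Of these 62 genes 10 had an unadjusted p under 0.05, beside 1654 of all 13902 features. The quasi-likelihood test passed 0 of them and DESeq2 passed 1, although DESeq2 gave no adjusted p for some of the 62. Of the 5 astrocyte genes 2 passed, both lower under the TAAR5-KO label, namely Gja1, a gap junction protein gene (log2 fold change −0.41, edgeR adjusted p of 0.0568), and S100b, a calcium-binding protein gene (−0.35, edgeR adjusted p of 0.0771). Neither passed the quasi-likelihood test, and both passed with DESeq2 (adjusted p of 0.0284 for Gja1 and 0.0633 for S100b). Median log2 fold changes were 0.06 for the pan-cortical genes and 0.28 for the spiny neuron genes, of which 11 of 12 had a positive sign with TMM and 0 with library size only, where the median of all features was −0.49. With library size only, every list gene tested had a negative sign apart from 1 of the 3 septal genes. The 4 thalamic and hypothalamic genes all had a negative sign with TMM as well, with a median of −0.86. Sim1 had 3 counts or fewer in 7 of 12 libraries and Lhx9 in 3, so their part in this median is uncertain.

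An analysis with Slc17a6 as the anchor was added after the data were seen. Of 75 list genes 0 passed the permutation test adjusted over all features. An unadjusted p under 0.05 was found for 10, and the share of all features at that p is not given. By Spearman's rho, which passed more of all features (last section), 2 passed, Lhx9 and Tcf7l2 (permutation test, adjusted p of 0.0747 for each). The r of Slc17a6 over the 12 libraries was 0.86 with Lhx9, 0.85 with Tcf7l2, 0.76 with Sim1 and 0.46 with Prkcd. By the permutation test the adjusted p was 0.161 for Lhx9 and 0.176 for Tcf7l2. Sim1 and Lhx9 had 3 counts or fewer in some libraries, as above. Positive r was not particular to these genes. All 5 astrocyte genes were positive (median 0.64), with S100b at 0.83 (permutation test, adjusted p of 0.184), the oligodendrocyte genes had a median of 0.53 and the spiny neuron genes one of −0.56, against 0.01 over all features. For this anchor the means of the labels were not removed. Slc17a6, the 4 thalamic and hypothalamic genes tested and the 5 astrocyte genes all had negative log2 fold changes between the labels. A difference between the labels and a relation between libraries were therefore not separated in these r values. The r of Slc17a6 with these genes within each label was not computed. Tcf7l2, a transcription factor gene of thalamic neurons, had 2.19 to 6.38 CPM under the TAAR5-KO label and 3.32 to 8.12 under the WT label, with its highest value in NK11. Only 6 features (0.0432%) passed with Slc17a6 as the anchor, of which 4 were positive (0.0288%), namely Cmtm5, Spart, Nr2f2 and Etfdh, and 2 negative (0.0144%). No member was among them. The part of subcortical tissue or of glia in the difference of Slc17a6 between the labels was not tested.

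The 10 features outside the list that were most like Slc17a7 were Olfm1 and Epop (r = 0.98), Dlgap1 (0.97), Rims1, Kif5c and Sv2b (0.96), and Nptx1, Sstr2, Rab6a and Smim13 (0.95), over 12 libraries. For each the permutation p was 1e-05, the smallest that 100000 permutations can give. Olfm1, for a secreted olfactomedin of neurons, had 24.2 to 55.0 CPM, and Epop, for a chromatin protein, 0.434 to 2.35 CPM. None of the 10 passed between the labels, with edgeR adjusted p-values of 0.793 to 0.989.

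Depth was set beside the transporters. Slc17a7 had r = 0.60 with the log10 of counts outside rRNA (rho 0.53, permutation p = 0.0404, adjusted over 6 relations 0.121), and 0.46 without the 2 libraries farthest from the median of this depth measure. It was 0.35 within the TAAR5-KO label and 0.88 within the WT label. With the rRNA percent, r of Slc17a7 was −0.38 over the 12 libraries (permutation p = 0.224), −0.86 within the WT label and 0.28 within the TAAR5-KO label. Slc17a6 had r = −0.60 with the log10 of total counts (permutation p = 0.037, adjusted over 6 relations 0.121, not past the threshold), with a rho of −0.77 that did pass (permutation p adjusted over 6 relations 0.0280). Its r was −0.69 within the TAAR5-KO label and −0.25 within the WT label, and −0.67 without the 2 libraries farthest from the median of log10 total counts. The part of depth and of rRNA in either level was not tested.

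Last, the score of the 9 markers, their mean standardised log2 CPM, was entered as a covariate in the comparison of labels. The score includes Slc17a6, which did not follow Slc17a7 and was the member that passed between the labels. The likelihood ratio test then called 519 features (3.73%), 292 higher and 227 lower under the TAAR5-KO label, and 228 of the 229 calls made without it were among them. With Slc17a7 alone as the covariate 788 features were called, and 214 with the score and the quasi-likelihood test.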

How the data were processed

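Striatal RNA of 6 libraries labelled TAAR5-KO and 6 labelled WT was depleted of rRNA by the authors, made into directional libraries and sequenced. Per the labels and the methods, reads were trimmed with cutadapt 4.1, aligned with STAR 2.7.11b to GRCm39 and counted with featureCounts 2.0.6 on GENCODE M35. What the authors deposited are whole-number counts for each gene, not normalized or pooled, with exon lengths. The strand setting and the handling of multi-mapped reads are not given in the sources used here, so reads of overlapping genes cannot be told apart. A further 12 per-library columns were not used.

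Everything else was computed from those counts. The filter kept 13902 features that reached a CPM of 0.5 in 3 or more libraries. The likelihood ratio test of edgeR 4.0.16 (R 4.3.3) and a Benjamini-Hochberg adjusted p under 0.1 follow the study. TMM factors and estimateDisp were chosen here, since the study names CPM as its normalization and no scaling factors. Standard errors came from the fit. A prior count of 2 was used for log2 CPM. Correlations used 100000 permutations. The quasi-likelihood test and DESeq2 1.42.0 were alternatives, with missing adjusted p-values left missing. The fit and the correlations were tested on simulated data. The members, lists and tests were chosen with earlier results of these data known. Genes named were the members, the most abundant gene and every called gene of each other list, and the 10 features most like Slc17a7. Others were named after their values were seen, namely the genes of other lists past the correlation test or at the end of a list's range, Neurod1, the subcortical genes beside Slc17a6 and the features that track Slc17a6. Single values of some other list genes are not reported here. Counting error at 3 counts is a floor for depth only.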

Additional observations from a re-analysis of the deposited data

Results flagged for a closer look

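Over 40 groups of 6 libraries, 3 held a library far from its nearest neighbour relative to the range of its group, where chance alone gives about 1 in 20. Slc17a6 stood at 12.5 CPM in NK11, against 3.12 to 6.50 in the other libraries labelled WT. The ratio of Slc17a7 to Slc17a6 was 16.8 in NK12, against 2.56 to 7.51 in the other libraries of that label. Neurod2 was 35.1% of Slc17a7 in NK4, against 22% to 25.5% in the other libraries labelled TAAR5-KO, and rested there on 36 counts.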

How the results depend on the processing

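The count of features past the threshold between the labels, 229 in the comparison as reported, was 63 with the quasi-likelihood test, 7 with library size as the only scaling, 93 without a filter and 108 at an adjusted p under 0.05, and 85 (without NK11) to 414 (without NK4) when a library was left out. It was also under 229 by more than 1.5 times without NK1, NK2, NK3, NK7 or NK12. The count of markers past it, 1, was 0 with the quasi-likelihood test, DESeq2, library size only and an adjusted p under 0.05, and 0 to 1 without a library. The count over the other lists, 2, was 0 with the quasi-likelihood test, library size only, no filter and an adjusted p under 0.05, and 0 to 3 without a library. With library size only, the median of all features moved to −0.49, and log2 fold changes turned sign for Neurod6 (−0.51), Neurod2 (−0.71), Tbr1 (−0.78), Fezf2 (−0.74), Rorb (−0.50) and Lamp5 (−0.40). With the quasi-likelihood test they turned for Neurod2 (−0.0056), Tbr1 (−0.042) and Fezf2 (−0.076), and without a filter for Tbr1 (−0.042) and Fezf2 (−0.049). Leaving out a library gave −0.34 to 0.0020 for Slc17a7, −0.088 to 0.27 for Neurod2, −0.13 to 0.18 for Tbr1, −0.16 to 0.32 for Fezf2, −0.014 to 0.12 for Rorb and −0.29 to 0.24 for Lamp5. The features that track Slc17a7, 720 as reported, were 13489 with library size only, 45 without the 2 libraries farthest from its median and 1154 after removal of the genotype means, and 340 to 926 without a library, the lower end without NK12, with 395 without NK4 and 424 without NK9. With library size only, r of Slc17a6 with Slc17a7 was 0.63. Features that track Slc17a6, 6 as reported, were 104 by Spearman's rho, 2 without the 2 farthest libraries and 42 without NK11. With the marker score as covariate, 519 calls became 788 with Slc17a7 alone and 214 with the quasi-likelihood test. Over all alternatives, 134 of 180 fold changes and 105 of 144 correlations of the members kept their sign and their side of the threshold. The causes of these changes were not tested. No paired analysis was possible because the column numbers run from 1 to 12 across both groups and mark no shared animal. Fezf2, with 2 to 102 counts per library, and Slc17a6, with 19 to 271, are limited by depth.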
